A study of Mus musculus with 6 samples.

Results

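The genes described here are the translation initiation and elongation factors of the mouse cytoplasm. They were chosen by symbol, as every row of the deposited gene table whose symbol begins with Eif1 to Eif6 or with Eef1 or Eef2, leaving out the Eif2ak kinases. This gave 61 of 16403 genes, and 60 of them were tested. The remaining gene, Eef1akmt3, a methyltransferase of elongation factor eEF1A, had no more than 3 counts in any library.

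RNA was measured by bulk sequencing in LSK cells, the bone marrow fraction sorted as lacking lineage markers and carrying Sca-1 and Kit, where the hematopoietic stem cells and their first multipotent descendants are found. All mice were C57BL/6 with no engineered allele named in the labels. In the LIP group (ligature-induced periodontitis, n = 3 libraries) a ligature had been in place for 7 days at harvest, and the NL group (non-ligature, n = 3 libraries) was untreated. Every library pooled the sorted cells of 3 mice, so the spread between libraries is a spread between pools. The labels give neither sex nor age.

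Translation begins when initiation factors load the initiator tRNA and the small ribosomal subunit onto a capped mRNA, and elongation factors then deliver the aminoacyl-tRNAs and move the ribosome along. The mTOR kinase sets the pace of both steps through the 4E-BP inhibitors and through eEF2 kinase. Ribosomal protein mRNAs and some of the factor mRNAs begin with a 5′ terminal oligopyrimidine tract (TOP), a C followed by further pyrimidines at the cap, and the translation of such TOP mRNAs is controlled together. In blood stem cells protein synthesis is known to be kept low, and it rises as progenitors differentiate. Levels of mRNA, as measured here, do not give the rate of translation.

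On the count scale most changes were small decreases. Of the 60 tested factors, 25 fell in LIP (41.7%), 7 rose (11.7%) and 28 were not called, where a call is an adjusted p below 0.05 in edgeR's quasi-likelihood test over 12564 genes. Among all tested genes, 15.8% fell, 14.1% rose and 29.9% were called in either direction. The counts given below for single lists are to be read beside these shares. All 3 LIP libraries lay below all 3 NL libraries for 28 factors, against 21% of all genes, and above them for 5 factors, against 19.9% of all genes. The log2 fold change (LIP over NL) was negative for 45 of the 60 factors and ran from -0.36 to 0.26. Its median was -0.07, beside -0.00 for all tested genes. Relative to the NL mean, the median factor stood between -0.01 and 0.01 on the log2 scale in the NL libraries and at -0.06, -0.10 and -0.06 in the LIP libraries, so the shift was present in each of the 3 pools.

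**Figure D1:**
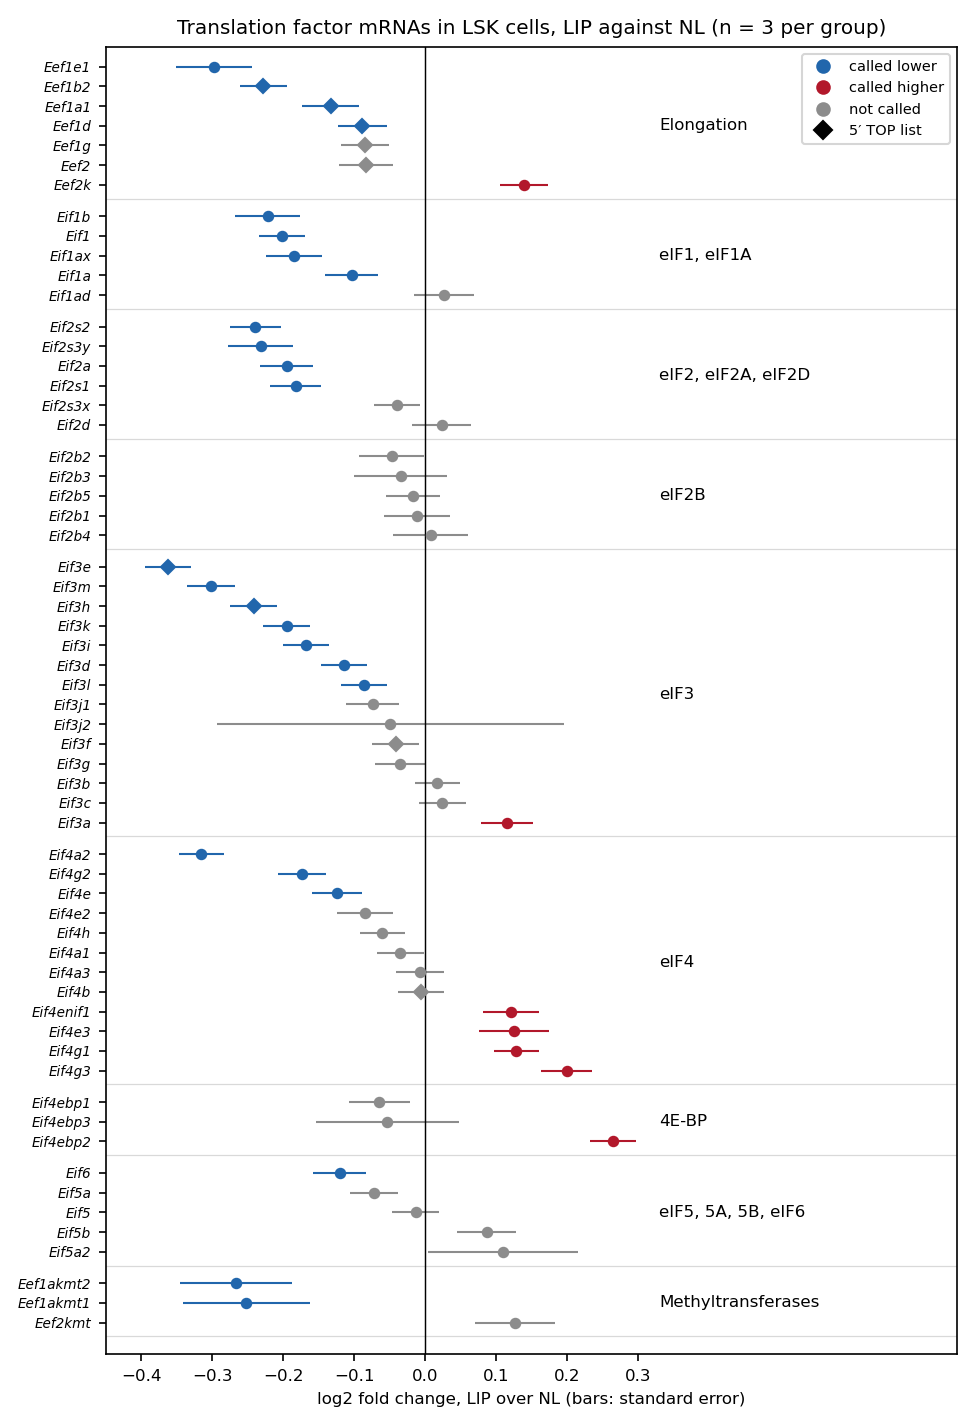
Log2 fold change of the 60 tested factors, LIP over NL, by role. Points are edgeR estimates from 3 libraries per group and bars are standard errors. Blue marks a fall and red a rise at an adjusted p below 0.05, grey marks factors that were not called, and diamonds mark the 9 factors of the TOP list. Falls reach -0.36 (Eif3e) and rises reach 0.26 (Eif4ebp2), and no eIF2B subunit was called.

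The size of this count depended on the scale and on transcript length. Log2 fold changes rose with transcript length among the 60 factors (Pearson's r = 0.59, across genes that share the same 6 libraries, given without a test), and among all tested genes r was 0.23. An offset per library for the length trend was estimated from genes above a low expression cut, without the factors and the ribosomal protein genes. With it, 17 factors fell and 6 rose, beside 13.4% and 13.6% of all genes. Of these, 16 of the falls and all 6 rises were among the calls made without the offset. An offset for length and GC content together gave 19 falls and 5 rises, beside 12.1% and 12.5% of all genes. On the deposited TPM values, which divide by transcript length, the median of all tested genes moved up by 0.11. There 6 factors fell (10%) and 20 rose (33.3%) by limma, beside 4.31% and 37.1% of all genes. Centred on that median, which shifts the log2 fold change of every gene alike, 23 factors fell and 3 rose, beside 12.4% and 10% of all genes. With library totals alone in place of TMM factors, 17 fell and 9 rose, beside 10.4% and 21.9% of all genes. The log2 fold change was negative for 36 of the 60 factors with the length offset, for 21 on uncentred TPM and for 43 on centred TPM. Called factors whose sign turned under one of these scales are named beside their values below.

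Since the TOP type of control is defined by the first bases of the mRNA, the annotated start of selected genes is shown. Whether the annotated starts are the capped ends of the mRNAs in these cells was not tested. Each line gives 30 bases of RefSeq sequence on the build GRCm38.p6, from 5 bases before the start given in its promoter table to 25 bases after it, written 5′ to 3′ on the gene's strand. Capitals mark the longest run that opens with C and holds at least 5 pyrimidines. The first 5 genes are on the TOP list, and the last 2 are not on it but had, on the count scale, the largest fall outside eIF3 and the largest rise.
Eef1a1: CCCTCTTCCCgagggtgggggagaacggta
Eef1b2: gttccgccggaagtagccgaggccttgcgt
Eef2: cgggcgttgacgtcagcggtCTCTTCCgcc
Eif3f: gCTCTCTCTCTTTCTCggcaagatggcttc
Eif4b: tcggacgccgcgccaCCCCCTCgcgctgct
Eif4a2: cccgtaggagcagggcggccgaggagcgcg
Eif4ebp2: cgggacgaccgggcgagagcaggcgagttg

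The windows are chr9:78481700-78481729 on the minus strand for Eef1a1, chr1:63176826-63176855 on the plus strand for Eef1b2 and chr10:81176626-81176655 on the plus strand for Eef2. Those of Eif3f and Eif4b are chr7:108934410-108934439 and chr15:102073768-102073797, both on the plus strand. Eif4a2 has chr16:23107463-23107492 on the plus strand and Eif4ebp2 has chr10:61452645-61452674 on the minus strand. The full span of Eif4ebp2 in RefSeq reaches further, to 61452790, so its window shows a start inside that span, while the other 6 windows lie at the end of their gene's span. In Eef1a1 and Eif3f a pyrimidine run of 10 and 15 bases lies across the annotated start. In Eef2 and Eif4b the run lies inside the annotated transcript, 16 and 11 bases from the annotated start. The windows of Eef1b2, Eif4a2 and Eif4ebp2 hold none. A run opening within 5 bases of the annotated start, on the gene's strand, was found in 11 of the 46 factors with a RefSeq entry (23.9%), in 2 of the 5 matched TOP list members, in 48.4% of 64 ribosomal protein genes and in 21.2% of 27025 genes. Eef1d, Eef1g, Eif3e and Eif3h had no entry in the sequence table.

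The TOP list holds 9 factors: Eef1a1, Eef1b2, Eef1d, Eef1g, Eef2, Eif3e, Eif3f, Eif3h and Eif4b. It was written from textbook knowledge of TOP mRNAs and not from these windows. All 9 had negative log2 fold changes, although Eef1d and Eif3f turned positive with the length offset and Eef1d, Eef1g, Eef2, Eif3f and Eif4b on uncentred TPM. In the test 5 of the 9 fell (Eif3e, Eif3h, Eef1b2, Eef1a1 and Eef1d), none rose, and the median was -0.09 (0.04 on uncentred TPM and -0.07 centred). Among the 51 tested factors outside the list, 20 fell, 7 rose and the median was -0.05. The ribosomal protein genes moved much further: 80 of 82 fell, none rose, their median was -0.31 (-0.17 on uncentred TPM) and their range was -0.58 to -0.08. By library, the median of the TOP factors stood at -0.11, -0.11 and -0.10 relative to NL in the LIP libraries, while that of the ribosomal proteins stood at -0.25, -0.37 and -0.28. The share of ribosomal proteins in all TPM was 30.7% to 31.1% in NL and 26.7% to 28.04% in LIP, whereas the share of the 61 factors was 3.56% to 3.65% and 3.59% to 3.72%. On this scale the groups did not overlap for the ribosomal proteins and overlapped for the factors. As a share of counts the factors made up 4.05% to 4.17% in NL and 3.92% to 3.995% in LIP, without overlap. Both shares lean on 1 gene, Eef1a1. It alone held 17631 to 18300 of the factors' 35557 to 36535 TPM in NL. In LIP it held 17661 to 18409 of 35857 to 37237 TPM. The shares without Eef1a1 were not computed.

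With the length offset the TOP list still had 5 falls, with Eef2 in place of Eef1d, and a median of -0.09, and 56 ribosomal protein genes fell with a median of -0.12. The median effective length was 624 bases for the ribosomal protein transcripts and 1479 bases for the TOP factors. Of 7 other tested TOP mRNAs, Tpt1, Npm1, Rack1 and Nap1l1 fell, with log2 fold changes of -0.25, -0.20, -0.19 and -0.14. Vim, which encodes an intermediate filament protein, rose (0.09), and Hnrnpa1 and Pabpc1 were positive but not called (0.06 each). With the length offset 4 of these 7 fell and 2 rose. With the offset for length and GC content 2 fell, 3 rose and the median was -0.02.

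**Figure D2:**
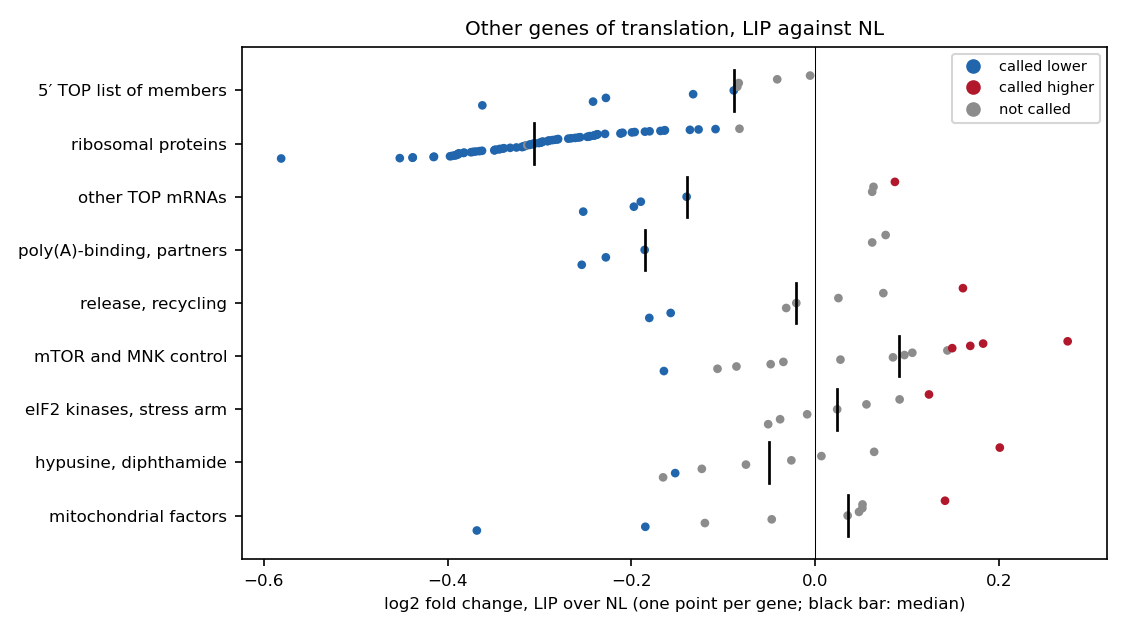
Log2 fold changes by gene list, LIP over NL. Each point is a tested gene, blue where it fell, red where it rose and grey where it was not called, and the black bar is the median of its list. The ribosomal proteins centre on -0.31 and the TOP list of factors on -0.09, while the genes for mTOR and MNK control centre on 0.09. With the length offset, which is not drawn, these medians were -0.12, -0.09 and 0.03.

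Among the elongation factors, Eef1a1 was the most abundant member by far. It encodes eEF1A, the GTPase that brings aminoacyl-tRNA to the ribosome. Its level, in CPM, counts scaled to the library total and TMM factor, was 18242, 18900 and 19058 in the NL libraries and 17066, 17195 and 16990 in the LIP libraries. All LIP values lay below all NL values, and the difference was -0.13 ± 0.04 (log2, SE; adjusted p = 0.00811, edgeR). The call was lost without NL replicate 2 (adjusted p = 0.0638) or without NL replicate 3 (adjusted p = 0.0543). On the TPM scale its mean was 17987 in NL and 17934 in LIP, and the centred difference was -0.12.

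The partners of eEF1A in the nucleotide exchange complex eEF1B moved by different amounts. Eef1b2, the alpha exchange subunit, stood at 816, 861 and 834 CPM in NL and at 727, 711 and 707 CPM in LIP. It fell by 14.6% (log2 -0.23 ± 0.03; adjusted p = 1.47e-07, edgeR). Eef1d, the delta exchange subunit, gave 196, 212 and 213 CPM in NL and 192, 192 and 199 CPM in LIP. Its groups overlapped and its fall was narrow (log2 -0.09 ± 0.03; adjusted p = 0.044, edgeR). The value became 0.02 with the length offset and 0.05 on the uncentred TPM scale, and the call was lost without NL replicate 2, NL replicate 3, LIP replicate 1 or LIP replicate 2 (adjusted p of 0.129 to 0.241). Eef1g, the gamma subunit that anchors the complex, was 1363, 1439 and 1410 CPM in NL and 1305, 1319 and 1347 CPM in LIP. Its LIP libraries were all lower, yet it just missed the threshold (log2 -0.09 ± 0.03; adjusted p = 0.0502, edgeR), and it passed without NL replicate 1 (0.0365) or LIP replicate 3 (0.0412).

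Eef1e1, which encodes a small scaffold protein of the multi-tRNA synthetase complex also known as AIMP3, stood at 40.0, 43.0 and 43.5 CPM in NL and at 34.5, 35.2 and 33.2 CPM in LIP. All LIP libraries were lower, and it fell by 18.7% (log2 -0.30 ± 0.05; adjusted p = 1.23e-05, edgeR). Translocation of the ribosome needs eEF2, and Eef2 stood at 5935, 6199 and 6390 CPM in NL and at 5702, 6006 and 5775 CPM in LIP. The groups overlapped and the difference was not called (log2 -0.08 ± 0.04; adjusted p = 0.0892, edgeR), although it passed with the length offset (0.0288) and when NL replicate 1 (0.0479) or LIP replicate 2 (0.0341) was left out. Eef2k, the kinase that phosphorylates and slows eEF2, went the other way, with 227, 237 and 250 CPM in NL and 260, 263 and 264 CPM in LIP. It rose by 10.1% (log2 0.14 ± 0.03; adjusted p = 9.41e-04, edgeR), with all LIP libraries above NL, and was not called on centred TPM (log2 0.07; adjusted p = 0.225, limma).

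**Figure D3:**
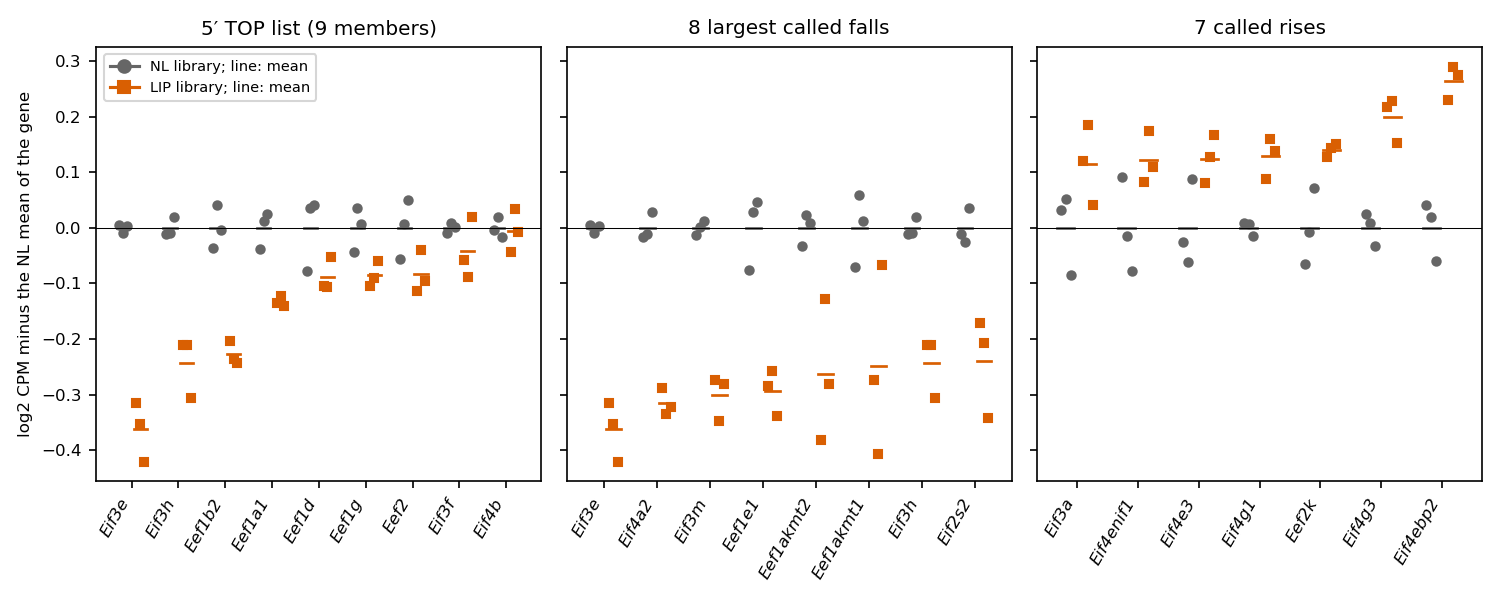
Levels in each library as log2 CPM minus the gene's NL mean, for the 9 factors of the TOP list, the 8 largest falls and the 7 rises. Grey circles are NL libraries, orange squares LIP libraries and short lines group means (n = 3). The LIP libraries of Eif3e, Eif4a2, Eif3m and Eef1b2 all lie below NL and those of Eif4ebp2 and Eif4g3 all lie above.

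The eIF1 and eIF1A proteins bind the small subunit and keep it open for scanning. Of the 5 tested genes of eIF1 and eIF1A, 4 fell, none rose, and the median was -0.19. With the length offset 2 fell (median -0.09), and with the offset for length and GC content 2 fell (median -0.01). Eif1, which monitors the choice of the start codon, was 292, 300 and 287 CPM in NL and 254, 249 and 261 CPM in LIP (log2 -0.20 ± 0.03; adjusted p = 1.38e-06, edgeR). Its close copy Eif1b fell by 14.3%, and the eIF1A genes Eif1ax and Eif1a fell by 12% and 6.91%. Eif1ad, a gene with an eIF1A-like domain, was not called (log2 0.03). Neither Eif1b nor Eif1ax was called with the length offset (adjusted p = 0.106 and 0.29, edgeR). Eif1ax had 0.04 with an offset for length and GC content together, and Eif1a had 0.02 on the uncentred TPM scale and lost its call without NL replicate 1 or 2 or LIP replicate 2 or 3 (adjusted p of 0.0541 to 0.164).

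The eIF2 complex carries the initiator tRNA to the ribosome and is the target of the stress kinases that halt initiation. Of the 6 tested genes for eIF2 and the alternative tRNA carriers, 4 fell and none rose, with a median of -0.19, and 3 fell with a median of -0.07 under the offset for length and GC content. Eif2s2, the beta subunit, stood at 209, 207 and 216 CPM in NL and at 187, 182 and 166 CPM in LIP (log2 -0.24 ± 0.04; adjusted p = 6.19e-07, edgeR). Eif2s1, the alpha subunit on which the kinases act, stood at 163, 166 and 160 CPM in NL and at 149, 146 and 137 CPM in LIP (log2 -0.18 ± 0.04; adjusted p = 5.61e-05, edgeR). In both genes every LIP library was below every NL library.

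The gamma subunit has an X-linked and a Y-linked copy. The Y-linked Eif2s3y fell by 14.8% and was not called with the offset for length and GC content (adjusted p = 0.399, edgeR), while the X-linked Eif2s3x, at 285 to 290 CPM in NL and 274 to 288 CPM in LIP, was not called (log2 -0.04; adjusted p = 0.383, edgeR) and had 0.09 on uncentred TPM. Whether the copies differed from each other in response was not tested. Eif2a, a single protein that can bring initiator tRNA in other ways, fell by 12.7%, and Eif2d was not called.

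None of the 5 subunits of eIF2B, the exchange factor that recharges eIF2 with GTP, was called, and their median was -0.02. The catalytic subunit Eif2b5 stood at 96.4, 95.1 and 95.3 CPM in NL and at 95.1, 96.1 and 92.3 CPM in LIP (log2 -0.02 ± 0.04; adjusted p = 0.787, edgeR). The groups overlapped, as they did for all 5 subunits. Among 7 tested genes of the eIF2 kinases and the stress arm they control, only Eif2ak1, the heme-regulated kinase, passed the test (log2 0.12).

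The eIF3 complex, the large scaffold that binds the small subunit and the mRNA, held both the deepest fall and a rise. Of 14 tested genes 7 fell, 1 rose and the median was -0.08, while with the length offset 4 fell and none rose. Eif3e, on chr15:43250040-43282736, had 459, 454 and 458 CPM in NL and 367, 358 and 341 CPM in LIP. The groups were far apart beside their spread, and Eif3e fell by 22.2% (log2 -0.36 ± 0.03; adjusted p = 1.26e-13, edgeR), the largest change of any factor on the count scale. It stayed at -0.31 with the length offset but was -0.16 with the offset for length and GC content, smaller than the change of Eif4a2 (-0.22) there, and -0.23 on uncentred TPM, smaller than that of Eif4ebp2 (0.36). Eif3m, at 202, 204 and 205 CPM in NL and 168, 160 and 168 CPM in LIP, fell by 18.8% (log2 -0.30 ± 0.03; adjusted p = 1.8e-10, edgeR). Eif3h, at 490, 491 and 500 CPM in NL and 427, 427 and 399 CPM in LIP, fell by 15.4% (log2 -0.24 ± 0.03; adjusted p = 3.04e-08, edgeR). Eif3e and Eif3m encode subunits with a PCI domain and Eif3h one with an MPN domain, and the 3 falls were called under every alternative run.

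The other falls in eIF3 were smaller, with log2 fold changes of -0.19 for Eif3k, -0.17 for Eif3i, -0.11 for Eif3d and -0.09 for Eif3l. Eif3d and Eif3l turned to 0.01 and 0.04 on the uncentred TPM scale, Eif3k and Eif3i were not called with the length offset, and Eif3l lost its call without NL replicate 2 or 3 or LIP replicate 2 or 3 (adjusted p of 0.058 to 0.27). Eif3f, a TOP list member with an MPN fold like that of Eif3h, was 510, 517 and 514 CPM in NL and 493, 483 and 521 CPM in LIP. Its groups overlapped and it was not called (log2 -0.04 ± 0.03; adjusted p = 0.365, edgeR). The core scaffold subunits Eif3b and Eif3c both had a log2 fold change of 0.02 and were not called.

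Eif3a, the largest subunit, was the only one to rise, from 379, 384 and 349 CPM in NL to 403, 421 and 381 CPM in LIP (log2 0.12 ± 0.04; adjusted p = 0.0131, edgeR). The groups overlapped, because LIP replicate 3 lay below NL replicate 2, and the call was lost with the length offset (0.0644) and when NL replicate 3 (0.135) or LIP replicate 2 (0.118) was left out. Eif3g and Eif3j1 were not called, and neither was Eif3j2, a near copy of Eif3j1 at 1.31 to 2.54 CPM.

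The eIF4 factors read the cap and unwind the leader, and here rises and falls balanced: 4 of 12 tested genes rose, 3 fell, and the median was -0.02, with 2 rises and 3 falls under the offset for length and GC content. The eIF4A helicases differed. Eif4a2, on chr16:23107468-23114132, gave 354, 355 and 365 CPM in NL and 293, 284 and 287 CPM in LIP, with no overlap. It fell by 19.6% (log2 -0.32 ± 0.03; adjusted p = 6.06e-12, edgeR). Its more abundant paralog Eif4a1 was 1140, 1145 and 1155 CPM in NL and 1123, 1119 and 1116 CPM in LIP, and was not called (log2 -0.03 ± 0.03; adjusted p = 0.459, edgeR). In TPM, which allows levels of different genes to be compared, Eif4a1 had 1046 in NL and 1116 in LIP, and Eif4a2 had 253 and 220. The difference between the paralogs was not tested. Eif4a3, a helicase of the exon junction complex, was not called (log2 -0.01, and 0.12 on uncentred TPM).

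Eif4b, the helicase cofactor on the TOP list, was at 850, 864 and 843 CPM in NL and at 827, 872 and 848 CPM in LIP, and its groups overlapped (log2 -0.01 ± 0.03; adjusted p = 0.923, edgeR). Eif4h, a related cofactor, was not called either.

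Of the eIF4G scaffolds, which join the cap to the ribosome, the large forms rose. Eif4g3 was 126, 124 and 121 CPM in NL and 144, 145 and 138 CPM in LIP (log2 0.20 ± 0.04; adjusted p = 1.48e-05, edgeR). Eif4g1 was 511, 511 and 503 CPM in NL and 540, 568 and 559 CPM in LIP (log2 0.13 ± 0.03; adjusted p = 0.00146, edgeR). The LIP libraries lay above NL in both, and the value of Eif4g1 became 0.05 and was not called with the offset for length and GC content. Eif4g2, which lacks the binding site for eIF4E, fell. It stood at 1391, 1345 and 1362 CPM in NL and at 1234, 1228 and 1172 CPM in LIP (log2 -0.17 ± 0.03; adjusted p = 5.58e-05, edgeR). With an effective length of 7680 bases it was one of the longest members, and it fell against the length trend.

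The cap-binding protein itself, Eif4e, stood at 177, 173 and 176 CPM in NL and at 167, 158 and 156 CPM in LIP (log2 -0.12 ± 0.03; adjusted p = 0.00446, edgeR). All LIP libraries were lower, but the fall became -0.01 and was not called with the offset for length and GC content. Eif4e3, a cap-binding paralog, was 46.7, 45.5 and 50.5 CPM in NL and 50.3, 52.0 and 53.4 CPM in LIP, and Eif4enif1, which carries eIF4E into the nucleus, was 116, 108 and 103 CPM in NL and 116, 123 and 118 CPM in LIP. Both rose with overlapping groups (log2 0.13 ± 0.05 and 0.12 ± 0.04; adjusted p = 0.0446 and 0.015, edgeR). Eif4e3 lost its call without NL replicate 1 or 2 or LIP replicate 2 or 3 (adjusted p of 0.0916 to 0.217), and Eif4enif1 without NL replicate 2 or 3 or LIP replicate 2 (0.0685 to 0.142). Eif4e2, a paralog tied to repression, was not called (log2 -0.08; adjusted p = 0.0921, edgeR), and was called without LIP replicate 3 (0.023).

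The 4E-BP proteins hold eIF4E back until mTOR phosphorylates them. Eif4ebp2, on chr10:61428491-61452790, had 281, 277 and 262 CPM in NL and 320, 334 and 331 CPM in LIP. Every LIP library exceeded every NL library, and it rose by 20.1% (log2 0.26 ± 0.03; adjusted p = 2.77e-09, edgeR), the largest rise of any factor. Eif4ebp1 had 86.9, 84.0 and 83.8 CPM in NL and 85.3, 74.3 and 84.1 CPM in LIP and was not called (log2 -0.06 ± 0.04; adjusted p = 0.28, edgeR). Eif4ebp3 was not called. In TPM the mean of Eif4ebp1 was 155 in NL and 162 in LIP, and that of Eif4ebp2 was 98.4 and 127, so Eif4ebp1 remained the higher of the pair.

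Among 14 tested genes for mTOR and MNK control of translation, 4 rose (28.6%) and 1 fell (7.14%), with a median of 0.09. Of all tested genes 14.1% rose and 15.8% fell. With the length offset 4 rose and 2 fell and the median was 0.03, and with the offset for length and GC content 3 rose and 3 fell. The rises without an offset were Larp1, a repressor that binds TOP mRNAs (log2 0.27), Mknk1, a kinase of eIF4E (0.18), Rptor, the mTORC1 adaptor (0.17), and Pdcd4, an eIF4A inhibitor (0.15). Rheb, the GTPase that activates mTORC1, fell (-0.16).

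The last steps of initiation changed little, with 1 fall (20%) and no rise among 5 tested genes of eIF5, eIF5A, eIF5B and eIF6. Among all tested genes 15.8% fell and 14.1% rose. Eif6, which keeps the large subunit apart from the small one, stood at 110, 110 and 110 CPM in NL and at 99.6, 101 and 103 CPM in LIP. It fell by 8.0% (log2 -0.12 ± 0.04; adjusted p = 0.0104, edgeR) and was not called with the length offset (log2 -0.07; adjusted p = 0.157). On the uncentred TPM scale its value was 0.01. Eif5, which triggers GTP hydrolysis by eIF2, was 394, 384 and 382 CPM in NL and 402, 380 and 368 CPM in LIP, with overlapping groups (log2 -0.01 ± 0.03; adjusted p = 0.808, edgeR).

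Eif5b, which joins the subunits, was 157, 158 and 154 CPM in NL and 162, 181 and 155 CPM in LIP. LIP replicate 2 stood above the rest, and the difference was not called (log2 0.09 ± 0.04; adjusted p = 0.111, edgeR). It passed without LIP replicate 3 (log2 0.13; adjusted p = 0.00706). Eif5a, the hypusine-bearing factor that helps ribosomes past difficult peptides, was 1347, 1342 and 1315 CPM in NL and 1289, 1232 and 1290 CPM in LIP. All LIP values were lower, but it was not called (log2 -0.07 ± 0.03; adjusted p = 0.104, edgeR). Its paralog Eif5a2, at 2.85 TPM in NL and 3.44 TPM in LIP beside 1862 and 1957 TPM for Eif5a, was not called. Of 8 tested genes for the enzymes that make hypusine and diphthamide, Dph5 rose (log2 0.20) and Dph6 fell (-0.15). This was 12.5% in each direction, beside 14.1% rises and 15.8% falls among all tested genes.

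The enzymes that methylate the elongation factors were low. Eef1akmt2 had 16.9, 17.6 and 17.4 CPM in NL and 13.2, 15.8 and 14.2 CPM in LIP (log2 -0.27 ± 0.08; adjusted p = 0.00683, edgeR). Eef1akmt1 had 12.9, 14.2 and 13.7 CPM in NL and 11.2, 10.1 and 12.96 CPM in LIP (log2 -0.25 ± 0.09; adjusted p = 0.0264, edgeR), with LIP replicate 3 inside the NL range. Both fell, but neither was called with the length offset. Eef1akmt2 also lost its call without LIP replicate 1 (0.0661), and Eef1akmt1 without NL replicate 2 or 3 or LIP replicate 1 or 2 (adjusted p of 0.0638 to 0.194). Eef2kmt, which modifies eEF2, was higher in all LIP libraries and was not called (log2 0.13; adjusted p = 0.0808, edgeR).

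**Figure D4:**
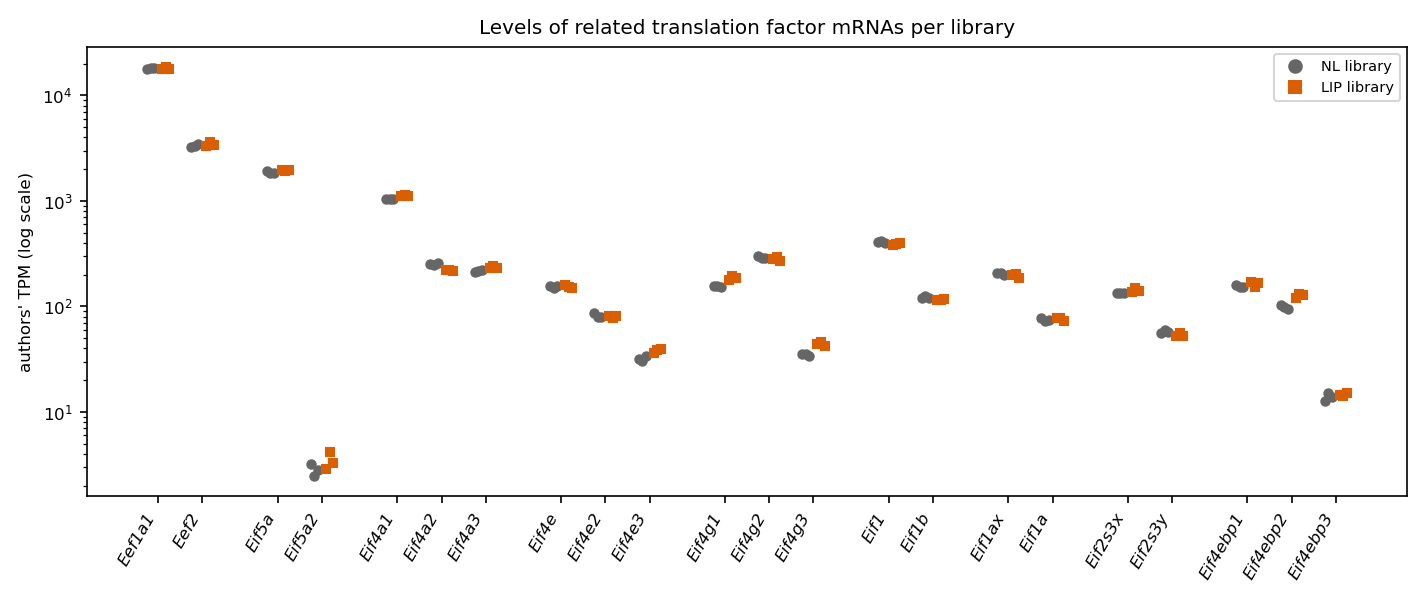
Deposited TPM (log axis) of related factors in each library, with grey circles for NL and orange squares for LIP. Mean levels run from 2.85 TPM for Eif5a2 to 17987 TPM for Eef1a1 in NL. Within most genes the groups lie close together beside the distance between paralogs. Eif4ebp2 is an exception, with means of 98.4 TPM in NL and 127 TPM in LIP, beside 162 TPM for Eif4ebp1 in LIP.

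By transcript abundance the order of the leading factors was Eef1a1, Eef2 (3351 TPM in NL and 3457 in LIP), Eif5a (1862 and 1957), Eef1g (1553 and 1601), Eif4a1 (1046 and 1116), Eef1b2 (741 and 692) and Eif3h (708 and 655). The order was the same in LIP. Within the other pairs of paralogs, Eif1 (408 TPM in NL and 388 in LIP) exceeded Eif1b (123 and 115), and Eif4g1 (154 and 185) exceeded Eif4g3 (35.0 and 43.9). Eif4e had 154 TPM in both groups, Eif4e2 81.8 and 79.9, and Eif4e3 32.1 and 38.2.

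Transcript length moved with these results. The median effective length was 1874 bases for the 60 factors and 2751 bases for all tested genes. Of the 43 factors shorter than the all-gene median, 22 fell (51.2%) and 1 rose, while 21.6% of all such genes fell and 9.01% rose. Of the 17 longer factors, 3 fell (17.6%) and 6 rose (35.3%), while 10% of all such genes fell and 19.3% rose. The correlation of length and log2 fold change across the factors dropped from 0.59 to 0.27 with the length offset. The falls of Eif3e, Eif3m, Eif3h, Eif4a2, Eef1b2 and Eef1e1 and the rises of Eif4ebp2 and Eif4g3 kept their sign and their call under every alternative run that held them, including both offsets and both TPM scales. Eif4a2, whose counts were not all whole, was not part of the run on genes with whole counts only. What set the length trend was not tested.

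**Figure D5:**
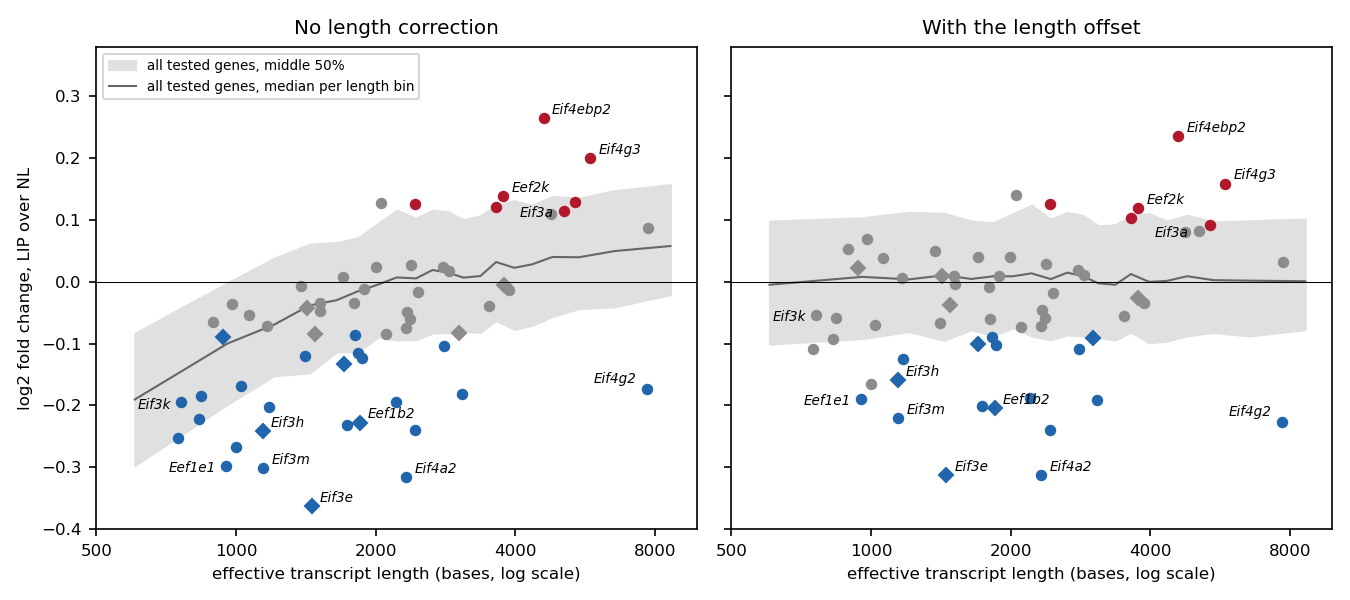
Log2 fold change (LIP over NL) against effective transcript length (log axis) without correction and with the length offset. Points are the factors (blue fell, red rose, grey not called, diamonds on the TOP list), the line is the median of all tested genes per length bin and the band is their middle 50%. The upward slope of the factors (r = 0.59) is smaller after the offset (r = 0.27), and Eif3e, Eif4a2 and Eif4ebp2 stay outside the band.

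In other lists of the translation machinery, to be read beside the 29.9% of all genes that were called, changes went both ways. Of 5 tested poly(A)-binding proteins and partners, Paip2, Paip2b and Paip1 fell, with log2 fold changes of -0.25, -0.23 and -0.19, and 2 falls and 1 rise were called with the offset for length and GC content. Of 7 tested release and recycling factors, Hbs1l rose (0.16), and Abce1 (-0.16) and Mcts1 (-0.18) fell. Of 9 tested mitochondrial translation factors, Mtif2 rose (0.14), and Mtrf1l (-0.37) and Mtif3 (-0.18) fell.

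The libraries held 17780853 to 18841103 counts. Markers of LSK cells summed to 2289 to 2291 CPM in NL and 2355 to 2387 CPM in LIP, and none was at 0. Of these, 2 of 7 tested genes rose, Kit (log2 0.18) and Meis1 (0.15), and none fell. Transcripts listed as markers of other cells were found in both groups and also differed between them. Neutrophil markers summed to 215 to 231 CPM in NL and 307 to 328 CPM in LIP, and 7 of 7 tested genes rose (Ngp from 30.4 ± 3.42 to 60.1 ± 1.88 CPM, SD, n = 3). A further listed neutrophil marker, Ly6g, was too low to be tested, with means of 0.0759 CPM in NL and 0.0348 CPM in LIP. Monocyte markers summed to 785 to 805 CPM in NL and 1021 to 1056 CPM in LIP (6 of 6 rose). B lineage markers summed to 33.5 to 37.0 CPM and 48.9 to 51.3 CPM (5 of 6 rose), and T and NK markers to 140 to 148 CPM and 157 to 172 CPM (4 of 6 rose). Most of the T and NK sum was Nkg7, with means of 125 CPM in NL and 140 CPM in LIP, while Cd3e had 0.493 and 1.06 CPM. Erythroid markers stood at 459 to 472 CPM in NL and 413 to 459 CPM in LIP, with 2 rises and 2 falls among 7. Most of that sum was Car1, with means of 299 CPM in NL and 270 CPM in LIP. With the length offset 5 of the 7 rose and none fell (median 0.27), and with length and GC content 5 rose and 1 fell. All 7 genes of heat shock and sort stress fell, with sums of 6139 to 6382 CPM in NL and 4498 to 4759 CPM in LIP. Hspa1a went from 35.0 ± 1.27 to 0.926 ± 0.221 CPM and Hspa1b from 81.8 ± 0.895 to 2.58 ± 0.588 CPM (SD, n = 3). Whether the marker transcripts came from other cells was not tested. The part of any such cells and of the stress genes in the changes of the translation factors was not tested either. In bulk libraries, fewer cells of a type and less RNA per cell cannot be told apart.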

How the data were processed

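Polyadenylated RNA was sequenced by the authors from 3 LIP and 3 NL libraries, with paired-end reads of 100 bp and a mean of 45.0 M reads, per the labels' protocols. One deposited table gives the authors' estimated counts, FPKM and TPM per gene and library, as its column headers name them. Per the submitters' processing notes STAR, HTSeq and GRCm38 were used, and which tool estimated the counts is not given in the sources read. Whole counts had been assumed in the plan, so the estimated counts were rounded first. Between 86.3% and 86.8% of counts in a library were whole (tolerance 1e-06), and Eif4a2, Eif4g2, Eif1, Eif5a, Eif5b, Eif3j1, Eif3j2 and Eef2kmt had some that were not, which may reflect reads shared between copies, so their values are less certain.

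Genes were filtered with filterByExpr (12564 kept, 3839 left out) and scaled with TMM, and the LIP libraries were tested against the NL libraries in edgeR 4.0.16 (R 4.3.3), quasi-likelihood test, robust, with Benjamini-Hochberg adjustment over all tested genes at 0.05. The procedure was tested on simulated data with known changes added. The outcome of that run is not given here, and no call above rests on it. Recovery of changes of the size seen for Eef1a1 and Eif4g1, or smaller, was not tested. At this depth 3 counts equal 0.157 to 0.171 CPM, a floor for counting error only. Effective lengths came from the deposited counts and FPKM. Alternatives were other scalings, filters and thresholds, DESeq2 1.42.0, limma-voom and limma 3.58.1 on log2(TPM + 1), genes with whole counts only, a length offset, a replicate block, each library left out, and, added after seeing the data, a length and GC offset and centred TPM. Same-numbered libraries correlated at 0.02, -0.01 and -0.10 in their deviations from the group means, so the numbers were not taken as pairs.

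The members and lists were chosen with earlier results of these data known. Values were named for every called member, the TOP list, paralogs, a fixed panel, and up to 4 genes with the smallest p of each other list. Positions and start sequences are from RefSeq (GRCm38.p6).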

Additional observations from a re-analysis of the deposited data

How the results depend on the processing

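The 25 falls and 7 rises of translation factors became 17 and 9 with library totals alone, 6 and 20 by limma on log2(TPM + 1), 23 and 3 with centred TPM, and 20 and 4 at an adjusted p below 0.01. Leaving out 1 library gave 20 to 26 falls and 4 to 8 rises, with 20 falls without NL replicate 2 and 4 rises without LIP replicate 2. The fit with the replicate block gave 25 and 7, and it changed no call of a named factor. Falls and rises over all genes were 1301 and 2756 with library totals, 1317 and 1167 with DESeq2, and 542 and 4657 on TPM. The number of all genes called higher in LIP was 1148 at an adjusted p below 0.01. The falls of the TOP list were 3 with library totals or TPM and 3 to 7 without 1 library, with 3 without NL replicate 2 or 3. The factors' median was -0.0237 with library totals, -0.0417 with the length offset, 0.0583 on TPM and -0.0263 with the length and GC offset.

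The signs below turned among the factors named with values by the rule, and the cause was not tested. On TPM without centring, the median of all tested genes was itself 0.11. On TPM, log2 fold changes were 0.0474 for Eef1d, 0.0438 for Eef1g, 0.0445 for Eef2, 0.0239 for Eif1a, 0.109 for Eif2b5, 0.0134 for Eif3d, 0.0863 for Eif3f, 0.0427 for Eif3l, 0.0934 for Eif4a1, 0.121 for Eif4b, 0.0632 for Eif4ebp1, 0.113 for Eif5, 0.0719 for Eif5a and 0.00800 for Eif6. Of the other factors, uncalled and negative on the count scale, Eif2b1 (0.12), Eif4a3 (0.12), Eif2b3 (0.10), Eif3g (0.09), Eif2s3x (0.09), Eif2b2 (0.08), Eif4ebp3 (0.07), Eif4h (0.06), Eif3j1 (0.05) and Eif3j2 (0.03) were also positive on TPM. With library totals the named factors had 0.0273 for Eif2b5, 0.00273 for Eif3f, 0.00941 for Eif4a1, 0.0386 for Eif4b and 0.0308 for Eif5. With the length offset they were 0.0222 for Eef1d, 0.0101 for Eif3f, 0.0525 for Eif4ebp1 and 0.00701 for Eif5a, and with the length and GC offset 0.0189 for Eef1d, 0.0450 for Eif1ax, 0.00495 for Eif4a1, 0.0484 for Eif4ebp1 and 0.0398 for Eif5. Centring lowered the log2 fold change of every gene on TPM by the same amount. Of the named factors that turned positive on TPM, only Eif4b stayed positive after centring, at 0.00425. When 1 library was left out, Eif4b ranged from -0.0258 to 0.0127, Eif5 from -0.0490 to 0.0157, and Eif5a2 from -0.00773 to 0.187. With 3 pools per group, factors not called here may still differ by amounts near their standard errors.

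A run opening exactly at the annotated start was found in 4.35% of factors, 23.4% of ribosomal protein genes, 2.91% of genes in the deposited table and 3.01% of all RefSeq genes. Within 10 bases these shares were 32.6%, 62.5%, 36.8% and 34.4%.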
